A study of Mus musculus with 2 samples.

Results

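The genes described here are the ankyrins Ank1, Ank2 and Ank3, the alpha spectrin Sptan1 and the beta spectrins Sptb, Sptbn1 and Sptbn4, in newborn mouse midbrain. They were chosen by gene symbol, with no measured value in the rule, and all 7 were found among the 43346 Ensembl genes of the tables. The series holds 1 group, midbrain tissue of mouse strain B6NCrl at postnatal day 0, with no treatment and no altered allele given in the labels. The total RNA of 2 single pups, pup 1 and pup 3, gave 1 library each, so the series has no contrast between conditions and each difference between the pups is a difference between 2 libraries.

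Spectrins are long, flexible proteins in which an alpha and a beta chain lie side by side, and their ends are joined by short actin filaments. In axons they form a periodic lattice under the membrane that helps the axon withstand stretch. Ankyrins bind beta spectrin on one face and membrane proteins on the other, and so hold sodium channels, potassium channels and L1-family adhesion molecules in place. The axon initial segment and the nodes of Ranvier, where action potentials start and are renewed, are built on Ank3 and Sptbn4, whereas Ank2 and Sptbn1 are known from the length of the axon.

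The libraries held 36934868 expected counts in pup 1 and 40769103 in pup 3. TPM, a transcript's share of all transcripts, divides counts by transcript length and scales them to a fixed sum, so genes are compared here in TPM. Transcripts of the 7 genes added up to 394 TPM in pup 1 and 433 TPM in pup 3. All 6 neuron markers reached 1 TPM in each library, with summed levels of 4139 and 4033 TPM. The list was split in direction: in TPM, Tubb3, Stmn2 and Elavl4 were higher in pup 1, and Map2, Snap25 and Rbfox3 lower. Of the 7 hypothalamus and forebrain markers, the 6 whose mean count reached 100 were all lower in pup 1 past 1 on the log2 scale. Their list summed to 146 TPM in pup 1 and 337 TPM in pup 3, and Oxt, the oxytocin precursor, was at 4.28 and 20.4 TPM. Astrocyte markers summed to 549 and 464 TPM, and endothelial markers to 145 and 124 TPM, in pups 1 and 3. The part of these markers in the differences between the pups given below was not tested.

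The spectrins were led by the broadly expressed pair Sptbn1 and Sptan1. Sptbn1 (ENSMUSG00000020315.14, mm10 chr11:30099395-30268175, minus strand), the beta spectrin of most non-erythroid cells and of the axonal lattice, was at 145 TPM in pup 1 and 147 TPM in pup 3 (146 ± 1.45, SD, n = 2). Sptan1 (ENSMUSG00000057738.9, chr2:29965560-30031451, plus strand), the alpha spectrin of neurons, was at 124 TPM in pup 1 and 121 TPM in pup 3 (122 ± 1.65, SD, n = 2). In pups 1 and 3, 94.6% and 94.8% of protein-coding genes lay below Sptbn1, and 93.5% and 93.4% below Sptan1. For each of these genes the pups differed by less than 3 TPM.

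The other beta spectrins of the group were near the low end of the expressed genes. Sptb (ENSMUSG00000021061.11, chr12:76580488-76710547, minus strand), the beta spectrin of red cells that is also found in muscle and brain, was at 3.68 TPM in pup 1 and 4.11 TPM in pup 3 (3.90 ± 0.304, SD, n = 2). Sptbn4 (ENSMUSG00000011751.12, chr7:27356383-27447686, minus strand), the beta spectrin of initial segments and nodes, was at 2.89 TPM in pup 1 and 3.41 TPM in pup 3 (3.15 ± 0.368, SD, n = 2). Within each library 47.8% and 48.6% of protein-coding genes lay below Sptb, and 45.5% and 46.7% below Sptbn4. Of the summed TPM of these 3 members, Sptbn1 held 95.4% ± 0.376, Sptb 2.55% ± 0.164 and Sptbn4 2.06% ± 0.212 (SD, n = 2).

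Among the ankyrins, Ank2 led and Ank1 was scarce. Ank2 (ENSMUSG00000032826.12, chr3:126921612-127499350, minus strand), the ankyrin-B of axon shafts, was at 76.8 TPM in pup 1 and 100.05 TPM in pup 3 (88.4 ± 16.5, SD, n = 2). Ank3 (ENSMUSG00000069601.9, chr10:69398773-70027438, plus strand), the ankyrin-G that organises initial segments and nodes, was at 41.2 TPM in pup 1 and 55.9 TPM in pup 3 (48.6 ± 10.4, SD, n = 2). Both were lower in pup 1, and their SDs were the widest among the 7 genes. Ank1 (ENSMUSG00000031543.14, chr8:22974844-23150497, plus strand), the ankyrin of the red cell membrane that some neurons also make, was at 1.50 TPM in pup 1 and 1.71 TPM in pup 3 (1.61 ± 0.148, SD, n = 2). It rested on 262 and 293 expected counts, and 40.0% and 40.7% of protein-coding genes lay below it. Of the summed TPM of the ankyrins, Ank2 held 63.9% ± 0.566, Ank3 35.0% ± 0.687 and Ank1 1.17% ± 0.121 (SD, n = 2).

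**Figure D1:**
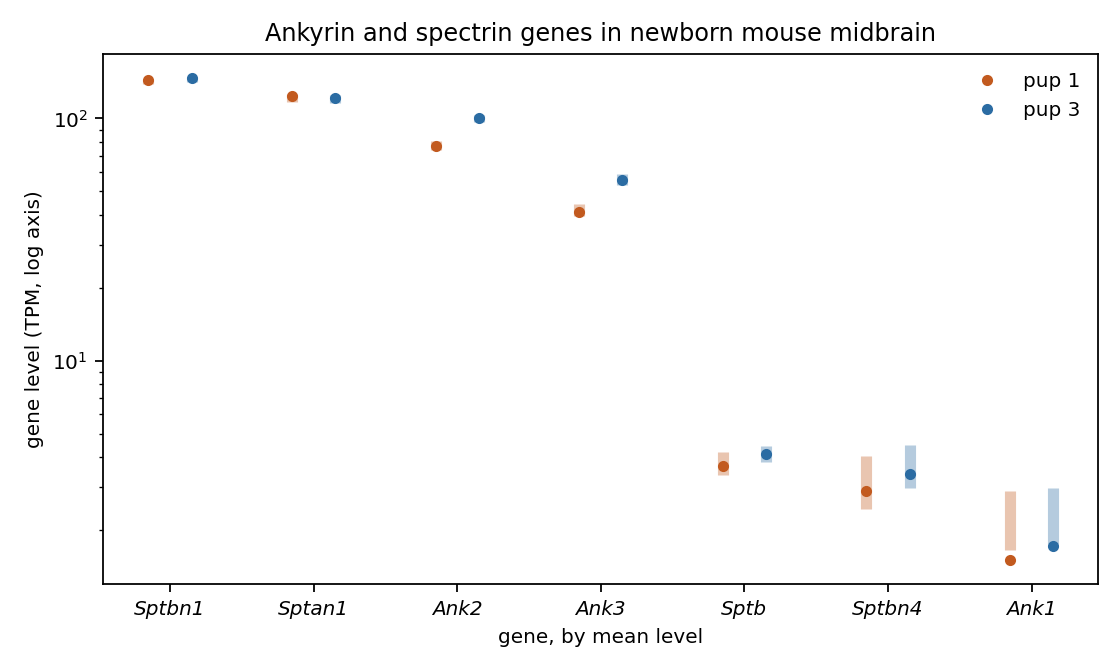
Level in TPM (log axis) of the 7 genes, with pup 1 left of pup 3 for each gene; points are the deposited TPM and pale bars the deposited credibility intervals of the posterior mean TPM. Sptbn1, Sptan1, Ank2 and Ank3 lie at 41.2 TPM or above in each library, and Sptb, Sptbn4 and Ank1 at 4.11 TPM or less; the points of Ank1 lie below their bars.

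The order of the levels was the same in both pups: Sptbn1, Sptan1, Ank2, Ank3, Sptb, Sptbn4, Ank1. A pair was called apart where both pups had the same sign, the mean log2 ratio of TPM exceeded 3 SD, and the deposited credibility intervals of the level overlapped in neither library. By this rule 17 of 21 pairs were apart, and 3 of the 6 neighbouring pairs. With 2 animals an exact two-sided sign-flip test cannot give a p below 0.5, so none is given.

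The widest step between neighbours was that from Ank3 to Sptb, a log2 ratio of 3.59 ± 0.20 (SD, n = 2), which splits the genes into an abundant and a scarce set. Ank2 stood above Ank3 by 0.87 ± 0.041 on the log2 scale. Sptan1 did not stand apart from Ank2, since the ratio was 0.69 in pup 1 and 0.28 in pup 3. Sptbn1 over Ank2, at 0.91 and 0.55, was likewise not called. Sptb over Sptbn4 (0.30 ± 0.054) and Sptbn4 over Ank1 (0.93 ± 0.038) were not called because the credibility intervals overlapped, while Sptb over Ank1 (1.23 ± 0.016) was.

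Sptbn1 and Sptan1 were called apart at a log2 ratio of 0.25 ± 0.034 (SD, n = 2), but this order depended on which transcripts were counted. With annotated retained-intron transcripts left out of every gene, a choice made after seeing the data and read without the interval condition, the mean ratio was -0.94, with Sptbn1 lower. That choice removes a short transcript of Sptbn1 but keeps a similar short one of Sptan1, both described below. Over complete coding transcripts alone, Sptbn1 was at 55.6 and 62.3 TPM and Sptan1 at 51.7 and 56.0 TPM in pups 1 and 3. This set leaves out both short transcripts, that of Sptan1 only because it was given no type here.

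Since an alpha chain pairs with a beta chain, the level of Sptan1 was set against the sum of Sptb, Sptbn1 and Sptbn4. Sptan1 was at 124 TPM against 151 TPM of beta spectrin in pup 1, and at 121 TPM against 154 TPM in pup 3. The log2 ratio was -0.29 in pup 1 and -0.35 in pup 3 (-0.32 ± 0.040, SD, n = 2). The ratio stayed negative over complete coding transcripts alone (-0.28 ± 0.040). That set lacks the short transcript of Sptan1, which was given no type, so it is not a clean check. With annotated retained-intron transcripts left out it turned positive, with Sptan1 at 115 TPM against 62.2 TPM of beta spectrin in pup 1, and at 111 TPM against 69.9 TPM in pup 3 (0.78 ± 0.15). Which chain was the more abundant therefore depended on the transcripts counted.

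Much of the TPM of the abundant members came from short transcripts. The gene-level TPM is the sum over annotated transcripts, 127 for the 7 genes, and dividing by length gives short ones weight beyond their reads. The transcript with the highest share of its gene's TPM was the same in both pups for 7 of 7 genes. Among the 9554 genes with 2 or more transcripts and a mean count of at least 100, 91.7% had this, so the members' count is near the background. By posterior mean shares it held for 6 members, with Sptbn4 the exception.

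In Sptbn1 the leading transcript was Sptbn1-207, a retained-intron transcript of 2956 nt with no annotated protein, which lies over the last 3 exons of the gene. It carried 59.1% of the gene's TPM in pup 1 and 53.9% in pup 3, but 34.1% and 29.7% of its expected counts. The full-length Sptbn1-201 and Sptbn1-202, both of 2363 amino acids, carried 21.1% and 25.6%, and 15.7% and 15.1%, of the TPM in pups 1 and 3. By counts, which are not divided by length, Sptbn1-201 led in both pups with 35.7% and 41.3%.

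Sptan1 had the same make-up. Sptan1-208, a model of 1434 nt in the annotation used for counting, carried 49.98% of the TPM in pup 1 and 45.0% in pup 3, but 16.5% and 13.8% of the counts. The later annotation used for types and protein lengths gives this transcript another length, so no type is given to it here. Sptan1-203, of 2477 amino acids, carried 27.5% and 33.2% of the TPM in pups 1 and 3, and 53.0% and 59.2% of the counts. Sptan1-201, of 2452 amino acids, carried 11.3% and 12.4% of the TPM. Sptan1-205, the longest coding model of this gene, was listed at 0 counts in both pups.

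**Figure D2:**
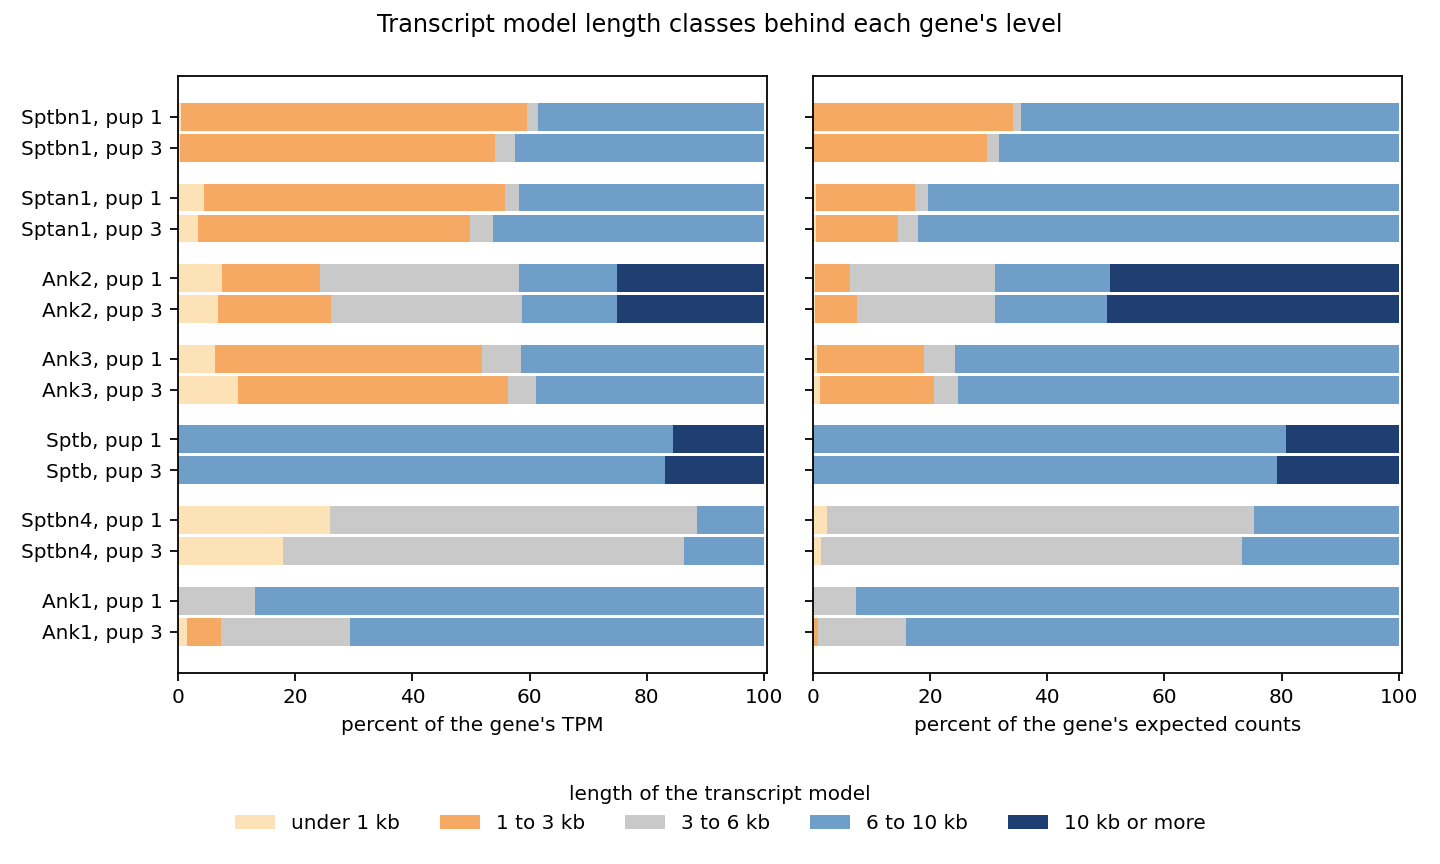
Share of each gene's TPM (left) and of its expected counts (right), in percent, carried by transcript models of 5 length classes, with pup 1 above pup 3 for each gene. Transcripts of 1 to 3 kb carry 59.1% and 53.9% of the TPM of Sptbn1 in pups 1 and 3 but 34.1% and 29.7% of its counts.

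The complete coding forms of Sptan1 that had counts differ in protein by 2 small exons. The exon of 60 nt (mm10 chr2:30001100-30001159, plus strand) adds 20 codons beside the SH3 domain, a module that binds proline-rich partners, and the exon of 15 nt (chr2:30014158-30014172, plus strand) adds 5. They are shown because the shares that follow count them; capitals mark the exon and lower case the 15 bases on each side in the transcript, from GENCODE M21.
Sptan1 60 nt exon: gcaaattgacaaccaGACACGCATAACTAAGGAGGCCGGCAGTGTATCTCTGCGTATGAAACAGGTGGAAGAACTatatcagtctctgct
Sptan1 15 nt exon: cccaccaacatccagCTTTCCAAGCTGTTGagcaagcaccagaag

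Of the counts of the complete coding Sptan1 transcripts, those with the 60 nt exon held 65.9% in pup 1 (95% exact binomial interval 64.9% to 66.9%) and 72.0% in pup 3 (71.2% to 72.9%). The share was lower in pup 1, and the intervals did not overlap. They cover counting error only, and neither the assignment of reads among transcripts nor the spread between animals. The 15 nt exon was present in 73.3% of these counts in pup 1 and in 73.4% in pup 3, with no detectable difference. Both exons came together in Sptan1-203, at 6124 counts in pup 1 and 7920 in pup 3. The form with neither, Sptan1-201, was at 2484 and 2922 counts. Forms with the 15 nt exon but not the 60 nt exon, Sptan1-204 and Sptan1-205, summed to 684 counts in pup 1 against 151 in pup 3. This gap was poorly fixed, since Sptan1-204 carried 3.04% and 0.63% of the gene's TPM in pups 1 and 3, but 4.39% and 3.10% by posterior means. By posterior mean TPM the share with the 60 nt exon was 65.3% in pup 1 and 71.1% in pup 3. The form with the 60 nt exon alone, Sptan1-202, was listed at 0 counts in both pups.

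Beta spectrins differ at their carboxyl end, where a long form carries a pleckstrin homology domain that binds membrane lipids and a short form ends earlier. In humans the short form of SPTB is that of red cells and the long form that of muscle and brain. The codons by which the short forms end are shown in capitals, 22 in Sptb (chr12:76597660-76597725, minus strand) and 28 in Sptbn1 (chr11:30109005-30109088, minus strand), after 15 shared bases in lower case, from GENCODE M21.
Sptb short C-terminus: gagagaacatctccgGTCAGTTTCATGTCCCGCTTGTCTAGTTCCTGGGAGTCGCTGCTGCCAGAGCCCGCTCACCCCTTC
Sptbn1 short C-terminus: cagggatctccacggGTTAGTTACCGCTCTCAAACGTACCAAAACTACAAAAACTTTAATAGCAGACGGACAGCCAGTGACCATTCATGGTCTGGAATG

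The 2 genes were opposite in this choice. In Sptb the short form, Sptb-202 of 2137 amino acids, led with 84.4% of the TPM in pup 1 and 83.2% in pup 3, and the long form, Sptb-201 of 2329 amino acids, held 15.6% and 16.9%. By counts the short form held 80.7% in pup 1 (95% interval 77.6% to 83.6%) and 79.3% in pup 3 (76.4% to 81.9%). In Sptbn1 the short form, Sptbn1-203 of 2154 amino acids, held 4.51% of the counts of short and long forms in pup 1 (4.13% to 4.92%) and 4.61% in pup 3 (4.25% to 4.98%). The pups did not differ beyond these intervals in either gene.

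Since Sptb and Ank1 are genes of red cells too, markers of these were read beside them. Of 14 erythroid genes 5 reached 1 TPM in each library, and the list summed to 2086 TPM in pup 1 and 2243 TPM in pup 3, nearly all of it globin. The genes of the red cell membrane on that list were below 1 TPM in both: for Slc4a1, the band 3 anion exchanger that binds Ank1 in red cells, 37 counts were listed in pup 1 and 26 in pup 3. Epb42, a further protein of that membrane, had 1 and 4, against 711 and 869 for Sptb and 262 and 293 for Ank1. These counts are not divided by length. Alas2, also on the erythroid list, had 256 counts in pup 1 and 307 in pup 3. It was at 6.25 TPM in pup 1 and 6.65 TPM in pup 3, above Sptb and Ank1 in both. The part of red cells in the levels of Sptb and Ank1 was not tested. Of 6 skeletal muscle genes 2 reached 1 TPM, with the list at 19.3 TPM in pup 1 and 19.6 TPM in pup 3. In whole tissue, fewer cells of a type and less RNA per cell cannot be told apart.

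Sptbn4 came mostly from a shorter form. Sptbn4-203 has 1241 amino acids and shares only exons 19 to 36 of the 36 exons of Sptbn4-201, the full-length form of 2561 amino acids. It thus lacks the amino-terminal region that binds actin in beta spectrins, and a form of this kind has been described at initial segments in mouse. Sptbn4-203 carried 62.7% of the TPM in pup 1 and 68.4% in pup 3, and Sptbn4-201 carried 10.6% and 13.7%. Transcripts without the first coding exons held 74.6% of the complete coding counts in pup 1 (95% interval 68.9% to 79.8%) and 72.8% in pup 3 (68.0% to 77.2%). How Sptbn4-203 shared these counts with its near copies was uncertain, since by posterior means it carried 40.7% and 23.9% of the TPM, and Sptbn4-204 carried 8.66% and 30.6%. Sptbn4-206, an incomplete coding model of 493 nt, was second by mean share with 20.4% of the TPM in pup 1 and 9.34% in pup 3, but it rested on 5.36 and 3.18 counts.

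In Ank3 the leading transcript by TPM and by counts was Ank3-231, a coding form of 1961 amino acids over 43 exons without the giant exon. It carried 29.3% of the TPM and 56.1% of the counts in pup 1, and 25.7% and 52.7% in pup 3. Ank3-213, an incomplete model of 2451 nt over the last exons, carried 24.5% and 23.9% of the TPM, but 11.2% and 11.7% of the counts.

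The giant exon of Ank3 (chr10:69986089-69993762, 7674 nt) encodes the long insert of the neuronal forms that build initial segments and nodes. It lies whole in Ank3-244, an incomplete coding model of 8612 nt that runs from exon 33 to exon 39 of Ank3-231. Ank3-244 had 883 counts and 4.49 TPM in pup 1, and 1345 counts and 6.25 TPM in pup 3. It held 10.9% and 11.2% of the gene's TPM, and 18.0% and 19.8% of its counts. Set against the 21 complete coding transcripts without this exon, it held 24.2% of their joint counts in pup 1 (95% interval 22.8% to 25.6%) and 26.9% in pup 3 (25.6% to 28.1%). Incomplete models without the exon, such as Ank3-213 with 549 counts in pup 1 and 793 in pup 3, were left out. Counting them would lower this share and the wider one below. A further 5 models with part of the exon had 447 counts and 7.39 TPM in pup 1, and 474 counts and 7.66 TPM in pup 3. With these counted as well, the share was 32.4% in pup 1 (31.0% to 33.9%) and 33.2% in pup 3 (31.9% to 34.5%). Without them the share was lower in pup 1 and the intervals just failed to overlap, and with them the intervals overlapped. No complete coding model with the whole exon was among the 44 counted, so reads from the shared exons of a giant transcript had no full model to be assigned to.

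Ank2 was spread over 34 transcripts, and 3 of them carried 10% or more of the TPM in both pups. Ank2-208, of 5208 nt, carried 30.7% in pup 1 and 28.2% in pup 3. Ank2-216, of 8095 nt, carried 16.7% and 16.1%, and ENSMUST00000182112.3, of 13865 nt, carried 16.3% and 14.8%. By counts the last of these led in both pups, with 33.0% and 30.2%. Models of 10 kb or more together held 25.1% and 25.2% of the TPM, and 49.3% and 49.8% of the counts, in pups 1 and 3. The giant exon of Ank2, which marks the axonal form, is 6198 nt long in the later annotation (chr3:126941610-126947807). The Ank2 models that carried 75.9% and 74.0% of the TPM changed in length between the annotations, so protein lengths and exon content are not given for them.

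In Ank1 the leading transcript, Ank1-209 of 1907 amino acids, carried 67.1% of the TPM in pup 1 and 61.7% in pup 3. By posterior means it carried 30.8% and 35.3%, so this share was poorly fixed at 262 and 293 counts. Ank1-212, a retained-intron transcript of 4304 nt, was second with 13.1% and 15.6%. The complete coding transcripts Ank1-205, Ank1-206 and Ank1-213 were among those listed at 0 counts in both pups. So were the coding models Ank1-204 and Ank1-215. By posterior means each of these carried 2.51% of the TPM or less in either pup. Short forms of 155 and 156 amino acids, whose kind is known from muscle, had 0 counts in pup 1 and 2.34 in pup 3. Their share was poorly fixed too. By posterior means the form of 156 amino acids carried 4.06% and 5.08% of the TPM in pups 1 and 3, and that of 155 carried 4.73% and 2.59%.

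**Figure D3:**
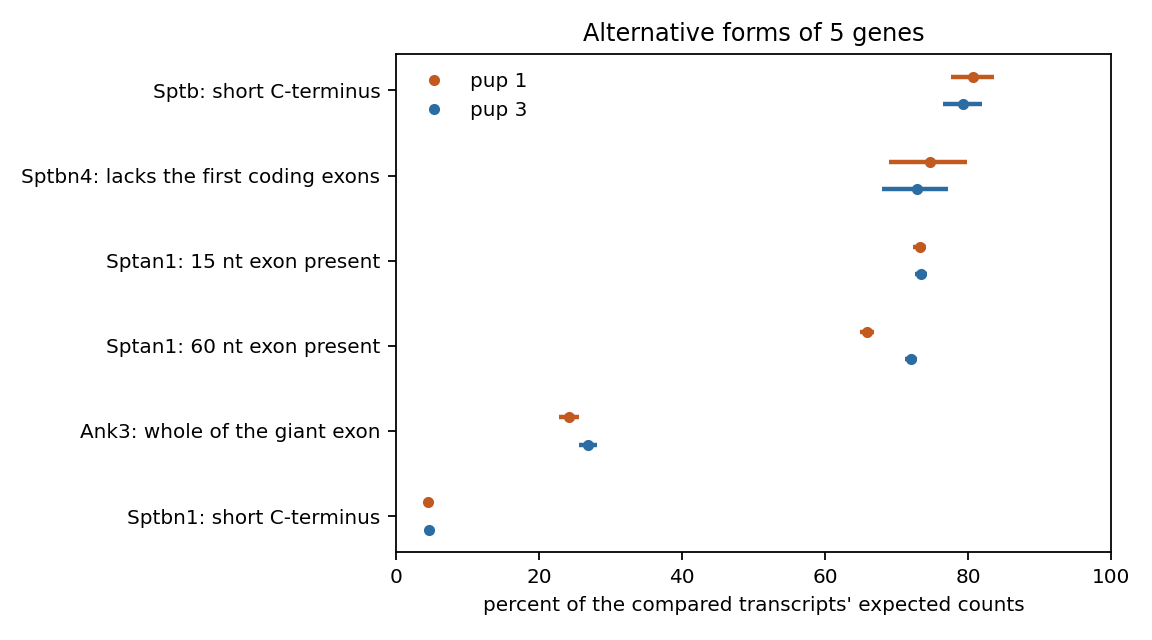
Share, in percent of the compared transcripts' expected counts, of 6 alternative forms in 5 genes, with pup 1 above pup 3; bars are 95% exact binomial intervals, which cover counting error only. The 60 nt exon of Sptan1, at 65.9% in pup 1 and 72.0% in pup 3, is the form with the clearest gap between the pups.

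Between the pups no member differed by more than 1 on the log2 scale, 0 of 7, where 42 of the 13318 genes with a mean count of at least 100 did (0.315%). Ank3, at 41.2 TPM in pup 1 and 55.9 TPM in pup 3, differed most, by -0.44 on the log2 scale of TPM, pup 1 minus pup 3. In TPM, Ank2 differed by -0.38, Sptbn4 by -0.23, Ank1 by -0.18, Sptb by -0.16 and Sptbn1 by -0.02. Sptan1 was at 0.03 in TPM and at -0.06 after edgeR's TMM scaling of its counts, so its direction depended on the scaling. The order depended on it too: after TMM scaling Sptbn4 differed most, by -0.36, against -0.34 for Ank2 and -0.32 for Ank3, and Ank1 was at -0.01. The median size over the members was 0.18, against 0.11 over all genes tested. Of these genes 6.84% differed by as much as Ank2 or more, and 4.60% by as much as Ank3 or more.

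In counts scaled by depth, 6 of the 7 genes were lower in pup 1 beyond counting error. The share of all genes called by this rule was not computed, so 6 of 7 cannot be set against a background. At high counts the rule calls small differences, such as the -0.07 of Sptbn1 and of Sptan1. The count of 6 therefore does not show that the members were lower in pup 1 more often than other genes. In TPM, without an interval rule, 54.8% of the 13318 genes tested and 85.7% of the members were lower in pup 1. The median differences were -0.02 and -0.18. Of protein-coding genes spanning 50 to 300 kb, 69.2% were lower in pup 1, and of those of 300 kb or more, 80.8%. Longer genes thus leaned in this direction too. The scaled counts of Ank2 (from 12077 in pup 1 and 16980 in pup 3) differed by -0.35 on the log2 scale, with a 95% interval of -0.38 to -0.32. Those of Ank3 (4904 and 6801) differed by -0.33, with an interval of -0.38 to -0.28. Sptbn4 (266 and 380) differed by -0.37, with a wider interval of -0.60 to -0.14. Sptb differed by -0.15 (-0.29 to -0.0024), Sptbn1 by -0.07 (-0.10 to -0.04) and Sptan1 by -0.07 (-0.11 to -0.03). The call for Sptb was marginal, since its interval ended close to 0 and TMM scaling moved its difference to -0.14. For Ank1, at -0.02, the interval of -0.26 to 0.23 included 0. These intervals do not cover the spread between animals, which 1 library per pup cannot give.

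Other measures moved with this difference. Ank2 spans 578 kb of the genome and Ank3 629 kb, and long genes as a class were lower in pup 1. The 505 protein-coding genes of 300 kb or more had a median difference of -0.16, and 80.8% of them were lower in pup 1. The 3450 genes of 50 to 300 kb had a median of -0.08 and the 8665 shorter ones a median of 0.01. Retained-intron transcripts of Ank2 summed to 8.71 TPM in pup 1 and 16.2 TPM in pup 3, and those of Ank3 to 4.64 and 10.8 TPM. Over 5067 genes with such a transcript, its median share of the counts was 2.74% in pup 1 and 3.41% in pup 3. With these transcripts left out, the difference was -0.30 for Ank2 and -0.30 for Ank3. Beyond that measurement, the part of gene span, of retained introns or of the regional markers in the difference was not tested.

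**Figure D4:**
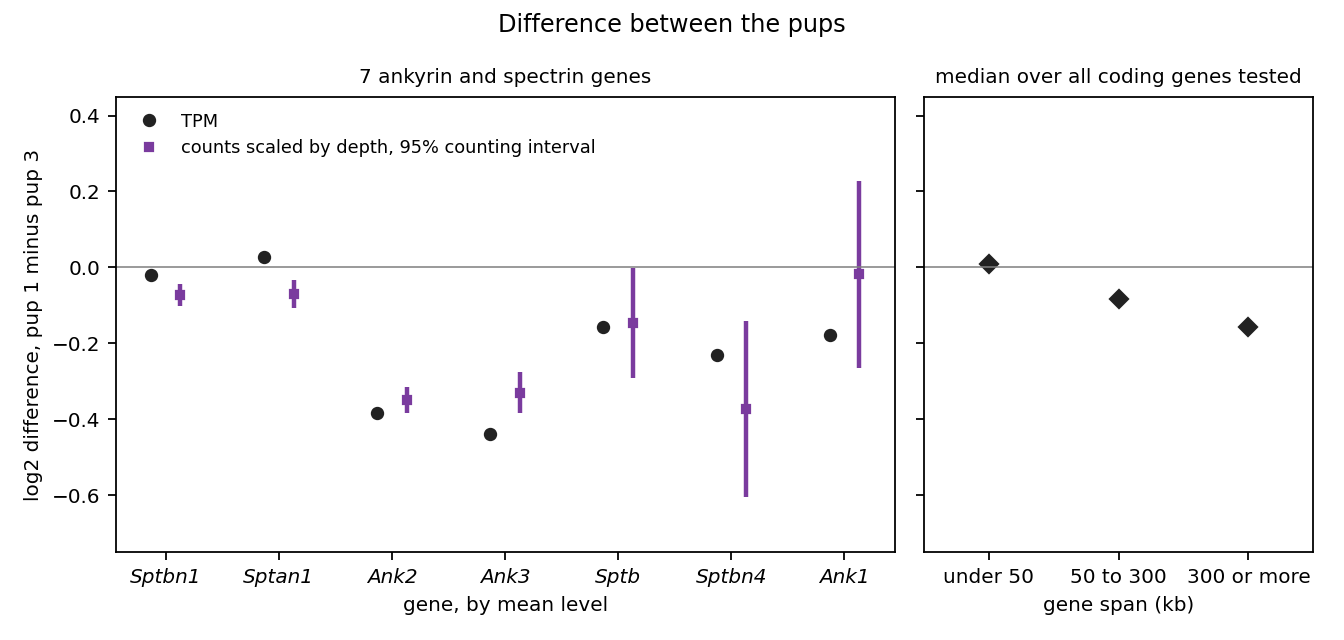
Left, log2 difference of each gene, pup 1 minus pup 3, in TPM (circles) and in counts scaled by depth (squares, with 95% counting intervals). Right, the median TPM difference over all coding genes tested, by the span of the gene; Ank2 and Ank3, at -0.38 and -0.44, lie below the median of -0.16 of genes of 300 kb or more.

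Genes that work with ankyrins and spectrins were read from 6 lists with 56 genes. Of these, 49 reached 1 TPM in each library, where 62.1% of the 21474 protein-coding genes did. Of the 50 with a mean count of at least 100, none passed 1 between the pups in either direction. The lists thus held mostly expressed genes.

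Among other spectrins, Sptbn5, the largest beta spectrin, was at 0.18 TPM in pup 1 and 0.14 TPM in pup 3.

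Of 17 genes of the junction where spectrin meets actin, 15 reached 1 TPM in each library. Actb and Actg1, the actins of non-muscle cells, were at 7511 and 3466 TPM in pup 1 and at 7363 and 3410 TPM in pup 3. Tmod2, the tropomodulin that caps actin filaments in neurons, was at 317 TPM in pup 1 and 359 TPM in pup 3. Tmod4, the tropomodulin of skeletal muscle, was the lowest at 0.41 and 0.35 TPM.

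All 12 membrane partners of ankyrins reached 1 TPM in each library, and the list's median was 34.1 TPM in pup 1 against 38.8 TPM in pup 3. The L1-family adhesion molecules Chl1 and L1cam led, at 114 and 97.2 TPM in pup 1 and at 116 and 99.6 TPM in pup 3. Kcnq3, a potassium channel subunit that Ank3 holds at initial segments, was the lowest at 2.19 TPM in pup 1 and 2.97 TPM in pup 3. The median difference of the list was -0.16 on the log2 scale.

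The 13 cytoplasmic partners all reached 1 TPM as well. Mapre1 and Mapre3, proteins of growing microtubule ends, were at 290 and 138 TPM in pup 1 and at 311 and 138 TPM in pup 3. Csnk2b, the regulatory subunit of casein kinase 2, which strengthens the binding of sodium channels to Ank3, was at 280 TPM in pup 1 and 286 TPM in pup 3. Csnk2a2, a catalytic subunit of that kinase, was the lowest at 2.94 and 3.13 TPM.

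Of 7 genes of nodes and paranodes, which form with myelin, 4 reached 1 TPM in each library. Cntn1, a contactin of paranodes that is also made before myelination, was at 139 TPM in pup 1 and 130 TPM in pup 3. Cntnap2 and Cntn2, which form a complex next to the paranode, were at 36.2 and 12.6 TPM in pup 1 and at 34.8 and 13.3 TPM in pup 3. Kcna2, the potassium channel subunit that they cluster, was the lowest at 0.33 and 0.44 TPM. Of 5 markers of myelinating oligodendrocytes 3 reached 1 TPM, and the list summed to 36.6 TPM in pup 1 and 37.4 TPM in pup 3.

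Calpains cut spectrin when calcium rises, and calpastatin holds them back. Capn2 was at 67.0 TPM in pup 1 and 69.9 TPM in pup 3, and its small subunit Capns1 was at 54.2 and 50.1 TPM. Capn1 was at 2.77 and 3.26 TPM, and the calpastatin gene Cast at 3.47 and 3.70 TPM. All 4 genes reached 1 TPM in each library.

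**Figure D5:**
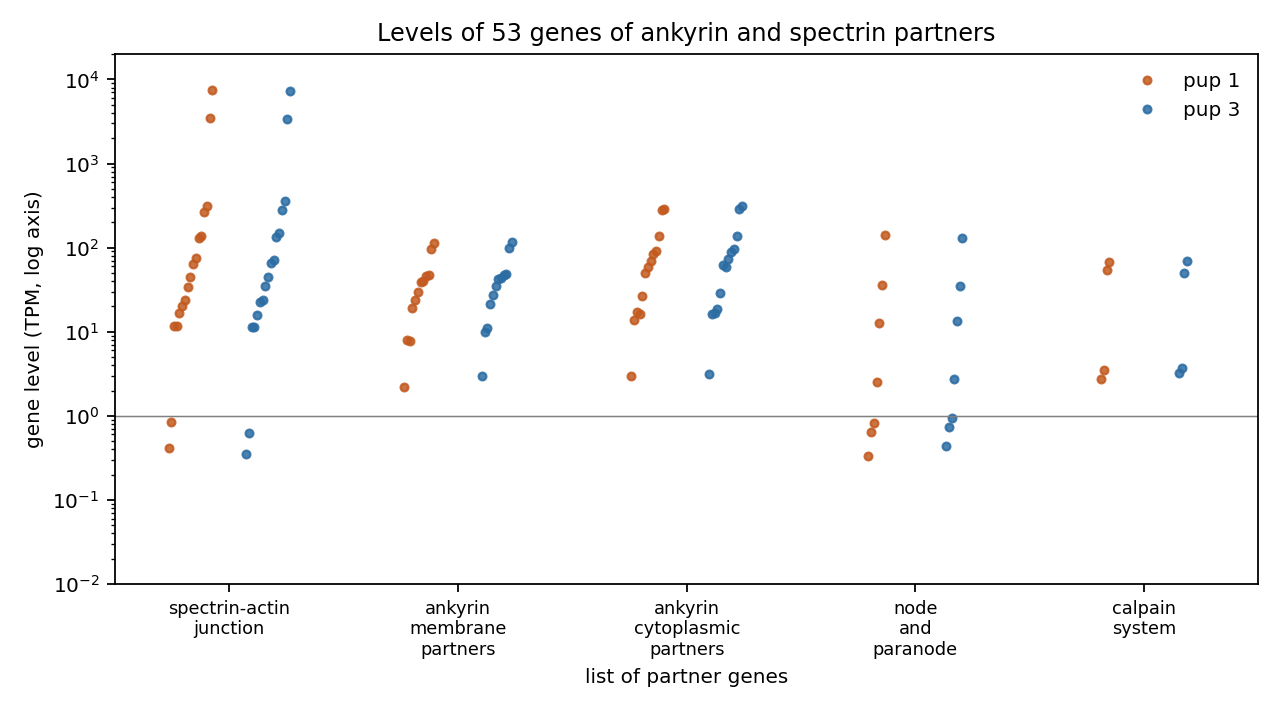
Level in TPM (log axis) of 53 partner genes in 5 lists, each point a gene and pup 1 left of pup 3; the line marks 1 TPM. All ankyrin partners lie above the line in both pups, from Kcnq3 at 2.19 and 2.97 TPM upward, while 3 of 7 genes of nodes and paranodes lie below it.

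Other genes overlap some members, and the strand setting of the counting is not given in the sources used here. Plekhg3, on the opposite strand of Sptb, had 60 counts in pup 1 and 89 in pup 3. Gm8098, on the opposite strand of Sptbn1, had 103 and 129. The further overlapping genes that were counted had at most 13 counts in either pup.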

How the data were processed

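Total RNA from the midbrain of 2 newborn pups was sequenced, 1 library each. Tables were derived from transcriptome alignments with build mm10 and GENCODE M4, per the deposited text record; no program, version or strand setting is given in the sources used here. Expected counts, deposited per gene and transcript, are estimated reads. TPM and FPKM were deposited by the authors after division by effective length. The percent of a gene's TPM per transcript was deposited by the authors. Bounds of a credibility interval of posterior mean TPM, a signal column here, were deposited by the authors with no level given. That interval need not hold the maximum-likelihood TPM, and did not for Ank1 and Sptbn1.

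The members and lists were chosen with earlier results of these data known. Symbols, transcript types, protein lengths and exons come from GENCODE M21, on the same build. Types and protein lengths were used only for transcripts whose deposited length was within 50 nt of M21, 108 of 127. Ratios are log2 of TPM after adding 0.1. Differences between pups were read at a mean count of 100 or more. Intervals on counts are exact 95% binomial intervals on rounded counts, which cover counting error only, since reads counted without molecular identifiers need not be independent molecules. Depth was 36934868 and 40769103 counts, where 1 count corresponded to 0.0193 TPM (pup 1) and 0.0179 TPM (pup 3) at the median gene above 1 TPM. Counts were rounded for edgeR 4.0.16 (TMM) and DESeq2 1.42.0 (size factors), used as scalings only, with R 4.3.3. Other steps used Python 3.11.15, pandas 2.3.3, SciPy 1.17.1 and matplotlib 3.10.9, and the computation of pup differences was checked on simulated counts. All members were named, with every gene of partner lists of 4 or fewer and the 3 highest and the lowest of longer lists. Transcripts named were the 2 leading ones, those at 10% or more in both pups and the longest coding one; others that separate the forms compared were chosen after their values were seen. Some genes that these rules name, and 1 sequence comparison, are not reported here.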

Additional observations from a re-analysis of the deposited data

How the results depend on the processing

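The median TPM of the 7 genes, 48.6, was 30.2 in deposited FPKM, and 41.2 to 55.9 with either pup left out. The log2 ratio of alpha to beta spectrin, -0.32, was -0.61 on counts not divided by length. It was -0.28 over complete coding transcripts, a choice added after seeing the data. That set lacks the short transcript of Sptan1, which was given no type. The ratio turned to 0.78 with annotated retained-intron transcripts left out. The ratio ran from -0.35 to -0.29 with either pup left out, and 1 further version of it is not reported here. With these transcripts left out, also added after seeing the data and without the interval condition, Sptbn1 over Sptan1 turned from 0.25 to -0.94, as the short transcript of Sptbn1 is dropped by that choice and that of Sptan1 is not. Of the pairs first not called, Sptbn1 over Ank2 was -0.36 under that choice, and Sptan1 over Ank2 was -0.20 on counts not divided by length; the other pairs kept their sign under the settings tried. Between 15 and 20 of 21 pairs were apart across the settings tried, and 19 to 20 with either pup left out, where the SD condition cannot apply. No member passed 1 between the pups under TMM, DESeq2 size factors, a pseudocount of 1, posterior means, no filter or without retained-intron transcripts. Without the filter on counts 2351 of 43346 genes passed 1 (5.42%), against 42 of 13318 with it, and a pseudocount of 1 left 27. The count of partner genes at 1 TPM or more was 49 with either pup left out. No paired analysis was possible because there is 1 group. Depth limits the transcript shares of Ank1 and Sptbn4, which rest on 262 to 380 counts per library.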
